A study of Mus musculus with 653 samples.

Results

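The genes described here are 9 plasma carrier protein genes, *Alb*, *Afp*, *Gc*, *Ttr*, *Trf*, *Rbp4*, *Ambp*, *Shbg* and *Ahsg*, out of 54195 genes in a table of reads per gene and cell. They were chosen by name as the albumin family and other carriers that liver cells secrete, and 8 of the 9 had at least 1 read in a cell. Single cells came from livers of embryos sired by Lgr5-EGFP-IRES-creERT2 males on a C57BL/6 background with MF1 females, an allele that reports activity of the *Lgr5* locus by GFP and also carries creERT2. All cells were sorted as Liv2+ (a hepatoblast surface antigen), CD31- and CD45-, either without regard to GFP (bulk) or as Lgr5-GFP+, and were sequenced by Smart-seq2, a protocol that makes 1 library per cell. The table holds 414 E10.5 cells, of which 49.03% were bulk and 50.97% Lgr5-GFP+, and 239 cells of E13.5, of which 66.5% were bulk and 33.5% (80 cells) Lgr5-GFP+. The labels tie no cell to an embryo or litter, so each group is 1 sample, no test between groups was made, and the intervals given (95%, exact) cover counting error only.

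In the embryo, hepatoblasts, the common progenitors of hepatocytes and cholangiocytes, begin to secrete plasma proteins soon after the liver bud forms. α-Fetoprotein dominates fetal plasma and albumin replaces it after birth, and both belong to a gene family that also includes the vitamin D-binding protein Gc. Transthyretin and retinol-binding protein travel together as a carrier of thyroid hormone and retinol, transferrin carries iron, and SHBG binds sex steroids.

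Reads per cell ranged from 463347 to 2279700 with a median of 1192740, and the design text names 471 E10.5 and 472 E13.5 cells before filtering. The libraries were made in 5 pools, and the median number of genes per cell was 4515, 4488, 6606, 6550 and 6280.5 (pools 1 to 5). A cell was called Afp-positive with more than 10 *Afp* reads, and the same cut-off was used for the other genes. In all, 66 cells (10.1%) were Afp-positive and 587 were not. The sort was meant to enrich hepatoblasts, but 65 cells met the hepatic markers given with the *Afp* threshold. By marker genes, 40.9% of the 587 other cells were of a mesenchymal class, 26.2% of an erythroid class, 27 cells endothelial, 13 cells leukocyte and 3 cells hepatic, 14 cells met more than 1 class and 23.2% met none. At E10.5 the mesenchymal class held 62.1% of the other cells, and at E13.5 the erythroid class held 52.5%.

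The *Afp* threshold fell into a gap. The highest cell below it had 8 reads and the lowest cell above it had 22, and 419 cells had 0 reads. Hepatic identity was checked on 5 genes that are not among the carriers described (*Apoa1*, *Apoa2*, *Fgb*, *Hnf4a* and *Foxa3*), with more than 10 reads of at least 2 of them required. Both criteria were met by 60 cells, *Afp* alone by 6 and the hepatic markers alone by 5. Afp-positive cells thus carried hepatic markers with few exceptions, and these exceptions are described with the E13.5 cells and with the order of the carriers.

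Afp-positive cells made up 26.1% of E10.5 Lgr5-GFP+ cells (55 cells, interval 20.3 to 32.5%) and 3.94% of E10.5 bulk cells (8 cells, 1.72 to 7.62%). At E13.5 they made up 2.5% of Lgr5-GFP+ cells (2 of 80, 0.304 to 8.74%) and 0.629% of bulk cells (1 cell, 0.0159 to 3.45%). The share in E10.5 Lgr5-GFP+ cells differed between pools: it was 2.22% in pool 1 (1 of 45), 68.1% in pool 2 (32 of 47), 20% in pool 3 (8 of 40), 14.6% in pool 4 (6 of 41) and 21.1% in pool 5 (8 of 38). In bulk cells of E10.5 it lay between 2.38% and 5.41% in every pool. Without pool 2, which held 34 of the 63 E10.5 Afp-positive cells, the E10.5 Lgr5-GFP+ share was 14.02%.

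The carriers were first compared between the 63 Afp-positive and the 351 other cells of E10.5, to show which of them were expressed in the same cells as *Afp*. The plot of reads per cell gives each of these cells. *Afp* chose the cells, so its own ratio is no finding. The 7 other carriers with reads all had a higher level in Afp-positive cells, by at least 4-fold, that is a log2 ratio of summed RPM (reads of the gene per 1000000 reads on all genes) of at least 2. Of 17583 genes with at least 100 reads in these cells, 6.43% reached that ratio in the same direction. The median log2 ratio was 7.32 over the 7 carriers and -0.51 over all genes tested. *Shbg* and *Ahsg*, with 27 and 11 reads in other cells, passed the 100 reads only through the Afp-positive cells. A high ratio was thus built in for them, and they are part of the count and of the median. *Alb*, *Gc*, *Ttr*, *Rbp4* and *Ambp* had more than 100 reads in the other cells too. With *Afp* included, the 8 carriers together took 1.59% of all reads in the median Afp-positive cell (0.00394% to 3.63%), and 0.00896% of the reads summed over the other cells. Marker lists moved with this contrast: the 5 hepatic markers summed to 11784 RPM in Afp-positive and 61.9 RPM in other cells, the 5 mesenchymal markers to 158.8 and 1601 RPM, and the 5 erythroid markers to 0.858 and 226.8 RPM. The 6 cholangiocyte markers summed to 108.8 and 235.1 RPM, and no marker of the cholangiocyte, endothelial, leukocyte or yolk sac and gut lists that had 100 reads was at least 4-fold higher in Afp-positive cells. Of the 6 yolk sac and gut markers only 2 had that many, and *Cdx2*, which had fewer, had 29 reads in Afp-positive cells, with 1 cell above 10, and 0 in other cells.

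**Figure D1:**
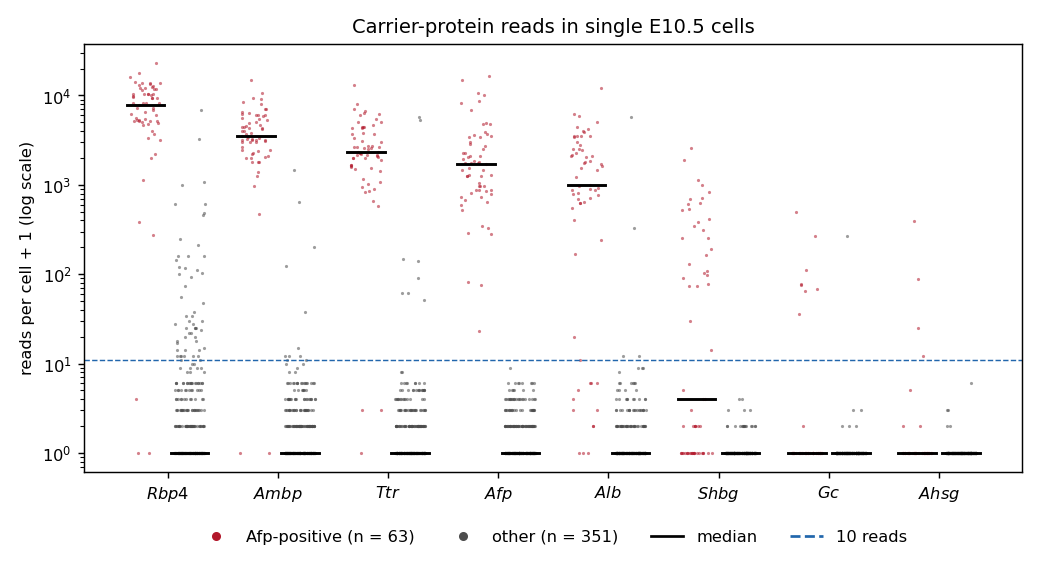
Reads per cell plus 1, on a log axis, of 8 carrier genes in single E10.5 cells, with 63 Afp-positive cells in red, 351 other cells in grey and the median of each as a bar. *Ambp* and *Ttr* separate the 2 kinds of cell almost fully, *Rbp4* also passes 10 reads in 52 other cells, *Alb* and *Shbg* are split within the Afp-positive cells, and *Gc* and *Ahsg* pass 10 reads (dashed line) in 8 and 4 of them.

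*Rbp4*, retinol-binding protein (chromosome 19, 38116629 to 38125281, minus strand, GRCm38), had the highest level of the carriers, also per length. In the Afp-positive cells of E10.5, its reads ranged from 0 to 22826 with a median of 7848, and 60 of 63 cells (95.2%, 86.7 to 99.01%) had more than 10. The summed level was 6349 RPM against 39.7 RPM in other cells, a log2 ratio of 7.32, with a range over 4 pools, those holding 5 or more Afp-positive cells, of 5.41 to 9.03. *Rbp4* was also the carrier most often seen outside Afp-positive cells, with more than 10 reads in 52 of 351 other E10.5 cells (14.8%, 11.3 to 18.97%), although their median was 0 reads and their highest value 6913. Of the 52 cells, 25 came from pool 2, and without that pool the share was 27 of 297 (9.09%, 6.08 to 12.95%).

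*Ttr*, transthyretin, which binds retinol-binding protein in plasma, lies on chromosome 18 (20665280 to 20674321, plus strand). Its reads in Afp-positive cells ranged from 0 to 13230 with a median of 2328, and 60 of 63 cells passed 10 reads, against 8 of 351 other cells (2.28%, 0.989 to 4.44%). The level was 2354 RPM in Afp-positive and 27.4 RPM in other cells, a log2 ratio of 6.43. Per kilobase of exon, *Rbp4* was above *Ttr* in 53 of the 59 cells that had more than 10 reads of both, by a median log2 difference of 1.29 (-3.005 to 4.21). Transcripts of both partners were thus found in the same cells, with that of *Rbp4* higher per length in most.

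*Ambp* encodes the precursor of α-1-microglobulin and bikunin (chromosome 4, 63143275 to 63154799, minus strand). Its reads ranged from 0 to 14851 with a median of 3502 in Afp-positive cells, 61 of 63 of which passed 10 reads. In other cells, 9 of 351 did so (2.56%, 1.18 to 4.81%), and 3 of 297 without pool 2 (1.01%, 0.209 to 2.92%). The level was 3333 RPM against 6.62 RPM, a log2 ratio of 8.98.

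*Alb*, *Afp* and *Gc* lie on chromosome 5, where *Afp* (90490737 to 90508907) starts 14135 bases after the end of *Alb* (90460897 to 90476602), both on the plus strand. *Gc* lies on the minus strand at 89417522 to 89457898, and 1002999 bases separate it from *Alb*. The bases upstream of their transcription starts are shown because these members of 1 gene family were detected in different numbers of the same cells. Each run holds the 150 bases before the RefSeq start on the GRCm38.p6 build, read 5′ to 3′ along the gene. They span chr5:90460720-90460869 for *Alb*, chr5:90490564-90490713 for *Afp* and chr5:89457899-89458048 for *Gc*. Capitals mark matches, on either strand, to the letters of motifs named after liver transcription factors: GTTAAT (HNF1), TGTTTNC (FOXA), CAAAGTCC (HNF4) and TTGCNNAA (C/EBP), and to TATAAA. No capital stretch here belongs to more than 1 motif.
Alb: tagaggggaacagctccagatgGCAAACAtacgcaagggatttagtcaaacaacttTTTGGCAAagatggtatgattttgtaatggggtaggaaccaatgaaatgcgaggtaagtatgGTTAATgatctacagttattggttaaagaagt
Afp: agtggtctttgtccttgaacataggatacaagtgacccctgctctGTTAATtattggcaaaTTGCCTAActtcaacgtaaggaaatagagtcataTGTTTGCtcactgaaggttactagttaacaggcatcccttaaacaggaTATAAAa
Gc: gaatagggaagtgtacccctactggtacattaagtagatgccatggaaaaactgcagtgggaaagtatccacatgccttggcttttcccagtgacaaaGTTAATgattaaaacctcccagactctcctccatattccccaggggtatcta

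The HNF1 letters were present in all 3 of these windows and in 3.71% of 32851 promoter windows of the same length. The FOXA letters (10.3% of windows) and the C/EBP letters (5.46%) were in the windows of *Alb* and *Afp* and not in that of *Gc*, TATAAA (7.57%) was in that of *Afp*, and the HNF4 letters (0.737%) were in none of the 3. RefSeq windows were at hand for 7 carriers. Among the other 4, *Ambp* held the FOXA letters, *Ahsg* the FOXA and C/EBP letters, 1 of 2 starts of *Rbp4* the C/EBP letters and TATAAA, and *Shbg* none. A match is a description of these letters and not a bound site.

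*Afp*, the gene that chose the cells, had 22 to 16334 reads in the Afp-positive cells of E10.5, with a median of 1710 and a summed level of 2163 RPM. *Alb* had 0 to 12055 reads with a median of 989, and 50 of 63 Afp-positive cells (79.4%, 67.3 to 88.5%) passed 10 reads. In other E10.5 cells, 4 of 351 did so (1.14%, 0.311 to 2.89%). The summed level of *Alb* was 1423 RPM against 14.5 RPM, a log2 ratio of 6.61 (4.06 to 12.87 over 4 pools). Of the 6311 *Alb* reads in other cells, 5778 came from 1 cell, an E10.5 Lgr5-GFP+ cell of pool 2 with 2 *Afp* reads that also had 6913 *Rbp4*, 5764 *Ttr* and 1470 *Ambp* reads.

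*Alb* was either plainly present or nearly absent. Among the 63 E10.5 cells with hepatic markers, 13 had 0 to 10 *Alb* reads, at most 8.95 RPM, and the other 50 had 155.95 to 11486 RPM. The 13 cells were not empty of carriers: all had more than 10 *Rbp4* and *Ambp* reads, with medians of 5284 and 1803, 10 had *Afp* and 10 had *Ttr*. Their *Gc* and *Ahsg* reads were 0 in every cell, and 2 of 13 had *Shbg* above 10 reads. In the 50 cells with *Alb*, the medians were 8153.5 reads for *Rbp4* and 3875 for *Ambp*, and 27 had *Shbg*, 7 *Gc* and 4 *Ahsg*. Of the 13, 10 came from pool 2, which gave 27 of the 50. The part of the pool in this split was not tested.

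**Figure D2:**
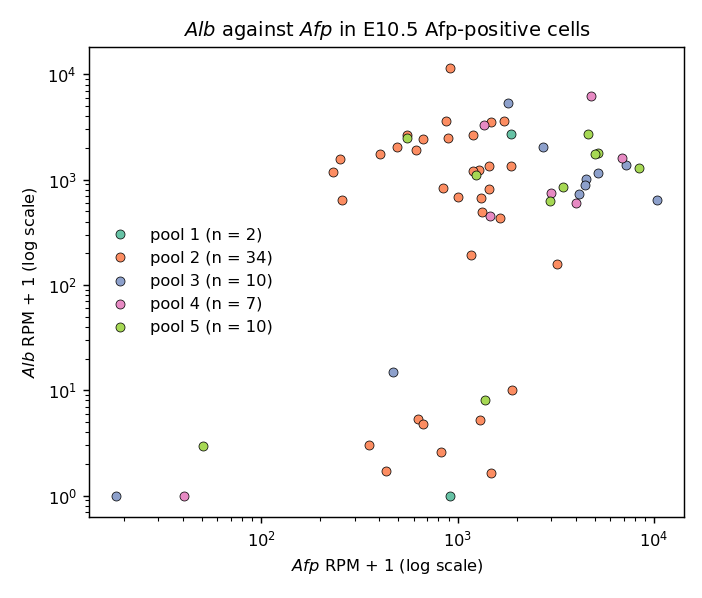
*Alb* against *Afp* in the 63 E10.5 Afp-positive cells, both as RPM plus 1 on log axes, 1 point per cell and coloured by library pool. *Alb* forms an upper group and a lower group near 0. The 2 groups overlap in *Afp*, but the lower group ends at 1901 RPM of *Afp* and the upper at 10405 RPM. Pool 2 cells lie at lower *Afp* than most cells of pools 3 to 5.

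Within the 50 Afp-positive cells that had *Alb*, the ratio of *Alb* to *Afp* per length varied widely, from -4.54 to 4.17 on the log2 scale with a median of 0.08, and *Alb* was the higher in 26. The ratio differed between pools. In pool 2, *Alb* was above *Afp* in 19 of 26 cells (median log2 1.62), and in pools 3 to 5 in 6 of 23 cells (median -1.50). The summed *Alb* level was close in these pools, at 1497 RPM in pool 2 and 1342 RPM in pools 3 to 5, whereas *Afp* was at 1065 and 3683 RPM. Pools and embryos cannot be told apart here, since the labels do not link them.

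*Shbg*, sex hormone-binding globulin (chromosome 11, 69614804 to 69617905, minus strand), was found in some Afp-positive cells and hardly elsewhere. Its reads ranged from 0 to 2613 with a median of 3, and 29 of 63 cells (46.03%, 33.4 to 59.1%) had more than 10. Of the rest, 23 had 0 reads and 11 had 1 to 4. None of the 351 other cells passed 10 reads, which allows a share of up to 0.855%, and the level was 180 RPM against 0.0622 RPM, a log2 ratio of 11.5.

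*Gc*, the vitamin D-binding protein, passed 10 reads in 8 of 63 Afp-positive cells (12.7%, 5.65 to 23.5%), at 35 to 496 reads. The other 55 cells had at most 1 read. The level was 15.1 RPM, and 64.2% of the reads came from 2 cells, both of the bulk sort. In other E10.5 cells, 1 of 351 had *Gc* above 10 reads, an Lgr5-GFP+ cell of pool 3 with 264 reads, and the level was 0.625 RPM, a log2 ratio of 4.59.

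*Ahsg*, fetuin-A (chromosome 16, 22891277 to 22899449, plus strand), was the rarest. It passed 10 reads in 4 of 63 Afp-positive cells (6.35%, 1.76 to 15.5%), at 11 to 392 reads, and 75.4% of its reads came from 1 bulk cell. The level was 6.56 RPM against 0.0254 RPM in other cells, none of which passed 10 reads (log2 ratio 8.02).

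*Trf*, transferrin, was listed at 0 in every cell, so it is not described further. Of its 3320 exon bases, 2108 (63.5%) are also exon bases of a second annotated gene on the same strand, *Gm20425*, which had 70 reads in all cells together. In all, 3989 of 21893 protein-coding genes are listed at 0 in every cell, and whether the overlap set the value of *Trf* was not tested. For *Ahsg*, 62 of 2197 exon bases overlap an antisense gene, and the other carriers share no exon base with another gene.

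Per kilobase of exon, the median levels in the 63 cells were ordered *Rbp4* (5133 RPM per kilobase), *Ambp* (2324), *Ttr* (1810), *Alb* (436), *Afp* (397) and *Shbg* (1.67), with *Gc* and *Ahsg* at 0. The ranges between the lower and upper quartile of cells overlapped for neighbours in this order except *Rbp4* against *Ambp* (quartiles 3288 to 6205 against 1403 to 3171), *Ttr* against *Alb* (1077 to 2691 for *Ttr* and 133.5 to 844.7 for *Alb*), and *Afp* against *Shbg* (198.3 to 879.9 against 0 to 127.3). Cell by cell, *Rbp4* was above *Ambp* in 53 of 63, *Ttr* above *Afp* in 57, and *Afp* above *Alb* in 37. *Afp* and *Alb* thus could not be ordered beyond the spread between cells, and *Ambp* was above *Ttr* in 39 cells and below it in 23. *Rbp4* was the highest carrier per length in 51 of 63 cells.

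The order of the carriers by how often they were found was examined over the E10.5 cells that had more than 10 reads of at least 1 carrier or met the hepatic markers, which were the 63 Afp-positive and 63 other cells. *Rbp4* was found in 88.9% of them (82.1 to 93.8%), *Ambp* in 70 (55.6%, 46.4 to 64.4%), *Ttr* in 68 (53.97%, 44.9 to 62.9%), *Afp* in 63 (50%, 40.97 to 59.03%), *Alb* in 54 (42.9%, 34.1 to 51.98%), *Shbg* in 29 (23.02%, 15.99 to 31.4%), *Gc* in 9 (7.14%, 3.32 to 13.1%) and *Ahsg* in 4 (3.17%, 0.871 to 7.93%). The intervals of *Ambp*, *Ttr*, *Afp* and *Alb* overlap, as do those of *Gc* and *Ahsg*, while *Rbp4* lies above and *Shbg* below all of the former. With more than 100 reads as the cut-off, *Rbp4* was found in 61.9% (52.8 to 70.4%) and *Ambp* in 51.6% (42.5 to 60.6%), so that the intervals overlap and *Rbp4* no longer stands apart. Of the 63 cells here that were not Afp-positive, 44 had *Rbp4* alone, so the lead of *Rbp4* comes largely from cells with no other carrier.

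To exclude such cells, the 63 E10.5 cells with hepatic markers were taken alone, a set that no carrier chose. *Rbp4* and *Ambp* were found in 63 of 63, *Ttr* in 60, *Afp* in 59, *Alb* in 50, *Shbg* in 29, *Gc* in 7 and *Ahsg* in 4. The lowest of these cells had 23 *Rbp4* and 14 *Ambp* reads, close to the cut-off. *Rbp4*, *Ambp*, *Ttr* and *Afp* were all present in 58 cells. The genes found less often were largely nested in those found more often. Every cell with *Alb* had *Ttr*, and 10 cells had *Ttr* without *Alb*. *Afp* without *Alb* was seen in 10 cells and *Alb* without *Afp* in 1. *Shbg* came with *Alb* in 27 of 29 cells, whereas 23 cells had *Alb* without *Shbg*. All 7 cells with *Gc* and all 4 with *Ahsg* had *Shbg*, which 29 of 63 cells had. The cells with *Gc* or *Ahsg* all came from pools 3 to 5. There *Shbg* was in 18 of 27 Afp-positive cells, against 11 of 34 in pool 2. *Gc* and *Ahsg* shared 2 cells, with 5 cells holding *Gc* without *Ahsg* and 2 *Ahsg* without *Gc*, so no order between them can be read from these cells.

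Along the hepatic score, log2 of the summed RPM plus 1 of 12 hepatocyte genes without any carrier, the same cells were set in 3 equal bins of 21 cells. *Afp* was present in 17, 21 and 21 cells from the lowest to the highest bin, *Ttr* in 18, 21 and 21, and *Alb* in 13, 18 and 19. *Shbg* was present in 7, 7 and 15 cells, *Gc* in 1, 2 and 4, and *Ahsg* in 1, 1 and 2. The score had little room in the upper bins, which spanned 14.05 to 15.19, while the lowest bin spanned 6.02 to 13.94. The median score of cells with more than 10 reads was 14.18 for *Rbp4* and *Ambp*, 14.24 for *Ttr*, 14.25 for *Afp*, 14.27 for *Alb*, 14.45 for *Shbg*, 14.55 for *Gc* and 14.49 for *Ahsg*. The lowest score of such a cell was 6.02 for *Rbp4* and *Ambp*, 11.05 for *Afp* and *Ttr*, 13.06 for *Alb*, 13.30 for *Shbg*, 13.90 for *Gc* and 13.94 for *Ahsg*. The value of 6.02 is that of 1 pool 2 cell with 23 *Rbp4* and 14 *Ambp* reads and 2 mesenchymal markers. *Rbp4* first passed 10% of its own 90th percentile RPM at a score of 13.06, and *Ambp* at 11.05. The order of detection is close to the order of the levels per length, and a gene at a low level is less often detected, so level and time of onset cannot be told apart.

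**Figure D3:**
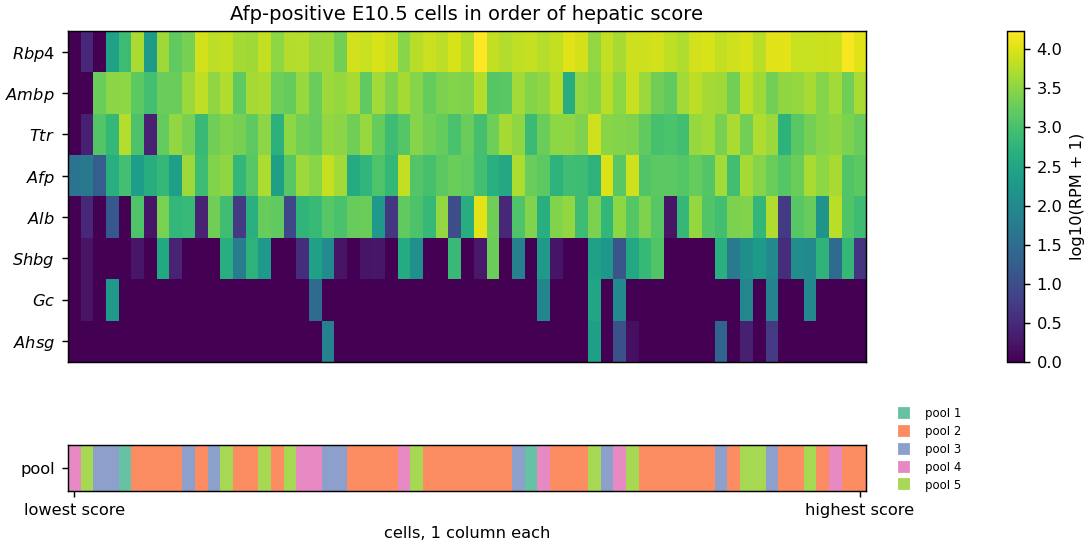
Levels of 8 carrier genes, as log10 of RPM plus 1, in the 63 E10.5 Afp-positive cells, 1 column each, ordered by hepatic score from left to right, with the library pool of each cell below. *Rbp4*, *Ambp*, *Ttr* and *Afp* fill nearly all columns, *Alb* misses 13 of them, *Shbg* is patchy, and *Gc* and *Ahsg* appear in 8 and 4 columns, none of them from pool 2.

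Single cells differed in which carriers they held. An E10.5 Lgr5-GFP+ cell of pool 3 had 2367 *Ambp* and 1599 *Ttr* reads with 22 *Afp*, 0 *Rbp4* and 0 *Alb* reads, at a score of 6.38. A bulk cell of pool 1 had 8059 *Ttr*, 4555 *Ambp*, 1286 *Afp* and 1137 *Rbp4* reads with 0 *Alb* reads, at 11.1. A bulk cell of pool 3 had 4308 *Ambp*, 907 *Ttr*, 637 *Afp*, 379 *Rbp4*, 270 *Gc* and 19 *Alb* reads, at a score of 7.64, and was the cell with *Gc* at the lowest score. At the other end, a bulk cell of pool 5 had all 8 carriers above 10 reads, with 13230 *Ttr*, 5558 *Rbp4*, 4353 *Ambp*, 3881 *Alb*, 868 *Afp*, 496 *Gc*, 413 *Shbg* and 392 *Ahsg* reads. Of the 4 E10.5 Afp-positive cells that did not meet the hepatic markers, 2 had *Afp* alone (80 and 75 reads) with 4 and 2 of 5 mesenchymal markers. Both were of the bulk sort.

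The less often found carriers, *Gc*, *Ahsg* and *Shbg*, differed between pools. Among Afp-positive cells of E10.5, *Gc* was found in 0 of 34 cells of pool 2 (which allows a share of up to 8.82%), with 0 reads in all, and in 8 of 27 cells of pools 3 to 5 (29.6%, 13.8 to 50.2%). *Ahsg* was found in 0 of 34 and in 4 of 27 (14.8%, 4.19 to 33.7%), and *Shbg* in 11 of 34 (32.4%, 17.4 to 50.5%) and 18 of 27 (66.7%, 46.04 to 83.5%). For *Rbp4*, *Ambp*, *Ttr* and *Alb* the shares were 76.5% to 100% in pool 2 and 85.2% to 92.6% in pools 3 to 5. Pool 2 cells had a median of 4853 genes against 6942 in pools 3 to 5, at 1266880 and 1195380 reads per cell, so genes per cell moved with these 3 carriers, and their part in the result was not tested. Between pools 3 to 5 and pool 2, 2 of 8 carriers, *Gc* and *Ahsg*, differed in level by at least 4-fold, as did 33% of all genes tested. Both had 0 reads in pool 2 and passed the filter on reads only through pools 3 to 5. Within pools 3 to 5, all 8 cells with *Gc* also had *Alb*, and 7 also had *Shbg*.

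**Figure D4:**
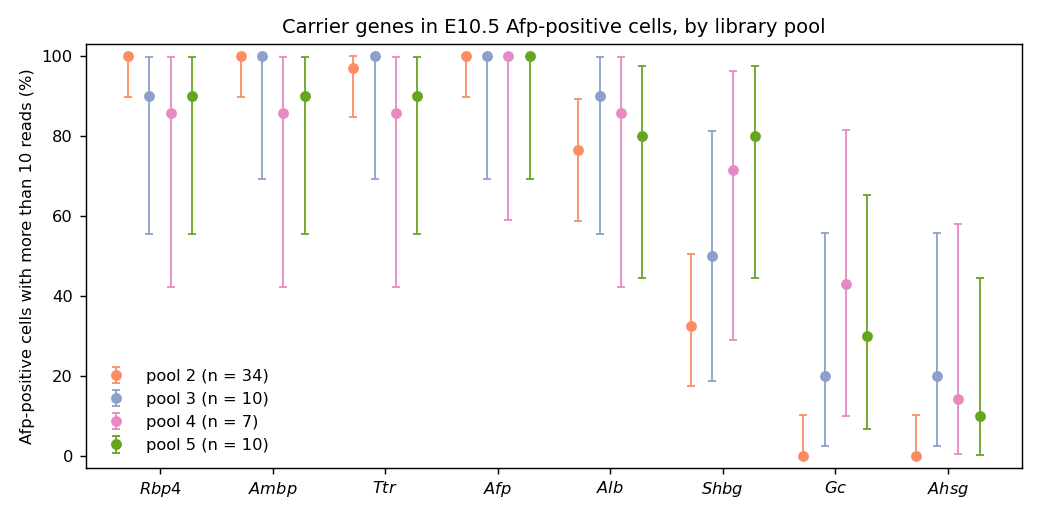
Percentage of E10.5 Afp-positive cells with more than 10 reads of each carrier gene in pools 2 (34 cells), 3 (10), 4 (7) and 5 (10), with 95% exact intervals. *Rbp4*, *Ambp*, *Ttr*, *Alb* and *Afp*, which chose the cells, lie above 75% in each of these pools, whereas *Gc* and *Ahsg* are at 0 in pool 2 and at 10% to 42.9% in the others.

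Between the sorts, 6 of 8 carriers were at least 4-fold higher in Lgr5-GFP+ than in bulk cells of E10.5, as were 11.6% of all genes tested. The log2 ratios were 4.67 for *Shbg*, 4.39 for *Afp*, 3.92 for *Rbp4*, 3.66 for *Ambp*, 3.52 for *Alb* and 2.56 for *Ttr*. *Gc* and *Ahsg* did not reach this ratio in either direction. *Gc* was at 2.38 RPM in Lgr5-GFP+ and 3.34 RPM in bulk cells, and *Ahsg* at 0.488 and 1.596 RPM. Both directions turned without pool 5 (log2 0.47 for *Gc* and 3.76 for *Ahsg*), which held the bulk cell with all 8 carriers. *Afp*, *Alb* and *Rbp4* were higher in the Lgr5-GFP+ cells of all 5 pools and *Shbg* of all 4 with reads, *Ttr* and *Ambp* of 4 of 5. In pool 1 this sets few cells against each other, since 1 cell of each sort was Afp-positive (log2 0.61 for *Afp*). Without pool 2, the ratio of *Ttr* was 1.41 and that of *Alb* 2.05.

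**Figure D5:**
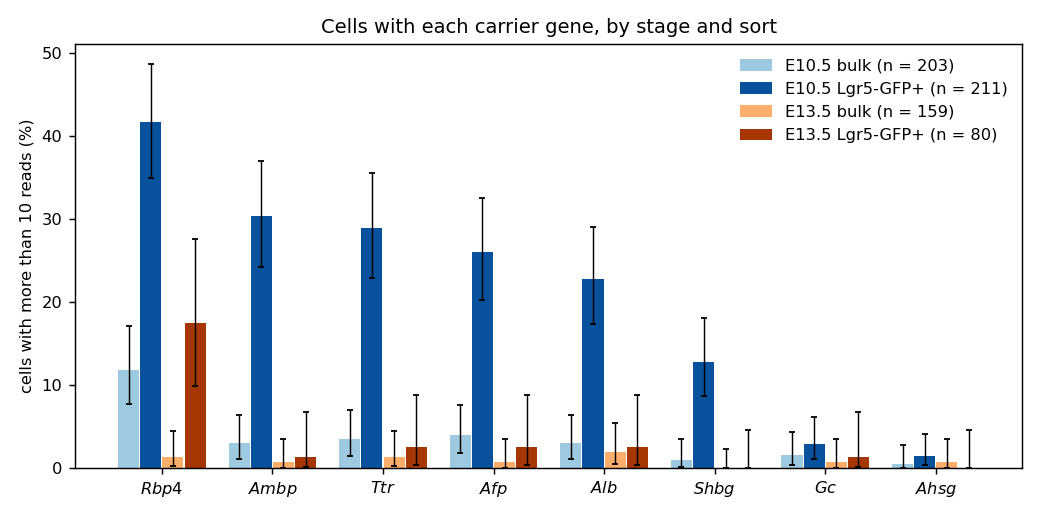
Percentage of cells with more than 10 reads of each carrier gene in the bulk and Lgr5-GFP+ sorts of both stages, with 95% exact intervals. The Lgr5-GFP+ sort of E10.5 has the highest percentage for every gene, from 41.7% for *Rbp4* to 1.42% for *Ahsg*.

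The sorts differed in how many cells were Afp-positive (55 and 8), so the comparison was repeated within Afp-positive cells of E10.5, where 3 of 8 carriers differed by at least 4-fold in either direction, as did 41.3% of all genes tested. *Shbg* was higher in Lgr5-GFP+ cells (204.1 against 43.8 RPM), and *Gc* (5.23 against 71.6 RPM) and *Ahsg* (1.84 against 33.7 RPM) were higher in bulk cells, the latter through few cells. *Ttr* was at 2354 RPM in the first and 2352 RPM in the second. In the Lgr5-GFP+ sort, all 55 cells had *Ttr* and *Ambp*, at 580 to 7092 and 471 to 14851 reads. *Alb* was found in 47 of 55 Lgr5-GFP+ (85.5%, 73.3 to 93.5%) and 3 of 8 bulk cells (37.5%, 8.52 to 75.5%). The hepatic markers were met by 54 of the 55 Lgr5-GFP+ and 5 of the 8 bulk cells, so the bulk values include cells without them.

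Across *Lgr5* itself, among the 55 Lgr5-GFP+ cells, *Afp* was at 3168 RPM in the 23 cells with more than 10 *Lgr5* reads, 2555 RPM in the 16 with 1 to 10 and 1286 RPM in the 16 with 0. *Alb* was at 1497, 1278 and 1874 RPM in the same order. Pool moved with these groups: pool 2, where *Afp* was at 1065 RPM in Afp-positive cells against 3683 RPM in pools 3 to 5, gave 10 of the 23, 11 of the 16 and 11 of the 16 cells. Within pool 2, *Afp* was at 1087, 1245 and 881 RPM and *Alb* at 1119, 1376 and 2229 RPM, and within pools 3 to 5 *Afp* was at 4780, 5605 and 2548 RPM and *Alb* at 1789, 1048 and 409 RPM. *Alb* thus went in opposite directions with *Lgr5* in the 2 sets of pools, and *Afp* was lowest without *Lgr5* reads in both, the last group of pools 3 to 5 being 4 cells. *Gc* passed 10 reads in 4 of the 23, 1 of the 16 and 0 of the 16 cells. It was found only in pools 3 to 5, which gave 13, 5 and 4 of these cells.

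By stage, 7 of 8 carriers were at least 4-fold higher at E10.5 than at E13.5 in each sort, as were 28.8% of all genes tested in bulk and 21% in Lgr5-GFP+ cells. In bulk, *Shbg*, *Gc* and *Ambp*, with 0, 36 and 68 reads at E13.5, passed the 100 reads only through E10.5 cells. In Lgr5-GFP+ cells the same held for *Shbg* and *Ahsg*, with 10 reads and 1 read at E13.5. For these the filter favoured a higher level at E10.5, and they are part of the counts. *Ttr* was at 110.9 RPM in E10.5 and 3.05 RPM in E13.5 bulk cells, and at 655 and 3.68 RPM in Lgr5-GFP+ cells. *Alb*, the main hepatocyte product, was at 36.9 and 3.16 RPM in bulk and 422 and 12.9 RPM in Lgr5-GFP+ cells. The carriers short of this ratio were *Ahsg* in bulk (log2 1.35, and -3.89 without pool 5) and *Gc* in Lgr5-GFP+ cells (0.85, and -0.02 to 6.16 without 1 pool). Since 3 of 239 E13.5 cells were Afp-positive, the E13.5 levels rest on few cells, and the other 236 cells of E13.5 were mostly of the erythroid class. Stage, sort yield and cell type in the gate cannot be told apart.

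The E13.5 Afp-positive cells were unlike one another. A Lgr5-GFP+ cell of pool 3 had 1093 *Afp*, 827 *Alb*, 774 *Ambp* and 514 *Rbp4* reads with 1 hepatic and 3 leukocyte markers. A bulk cell of pool 5 had 456 *Ttr*, 420 *Rbp4*, 242 *Alb* and 49 *Ambp* reads, with *Afp* at 168.2 RPM, together with 5 of 5 erythroid markers. A Lgr5-GFP+ cell of pool 1 had 224 *Afp* reads, 0 of every other carrier and 3 mesenchymal markers. A bulk cell of pool 4 that was not Afp-positive had 97 *Ahsg*, 75 *Rbp4* and 49 *Ttr* reads with 5 erythroid markers. Between Lgr5-GFP+ and bulk cells of E13.5, 5 of 7 carriers tested differed by at least 4-fold, as did 39.7% of all genes tested, which for *Afp* sets 2 cells against 1. *Gc* and *Ambp* passed the 100 reads only through Lgr5-GFP+ cells (36 and 68 reads in bulk), and *Ahsg* only through bulk cells. *Gc* turned direction without pool 4 (log2 2.70 and -3.28).

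Outside Afp-positive cells, *Rbp4* stood apart from the other carriers. More than 100 *Rbp4* reads were found in 19 cells that were not Afp-positive, 18 of them from E10.5. Of the 19, 11 were of the mesenchymal class, 6 of no class and 2 of the hepatic class. In 16 of the 19, no other carrier passed 10 reads. Excluding pool 2, 29 of 472 cells had more than 10 reads, at 19 to 1073 reads, and 19 of the 29 met the mesenchymal markers. Of the 29, 27 were of E10.5, where the mesenchymal class held 62.1% of all other cells, so these counts single out no class. None of the erythroid, 27 endothelial or 13 leukocyte class cells passed 10 *Rbp4* reads.

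Low reads of the carriers in other cells moved with pool. In pool 2, 37 cells were Afp-positive or met the hepatic markers and held 344765 *Rbp4* reads. Of the remaining cells of that pool, 75% had at least 1 *Rbp4* read and 34 had more than 10, with a median of 5 reads. In pool 1, with 3 such cells and 9357 *Rbp4* reads, 23.7% of the remaining cells had a read. Each library carries a pair of index sequences, and libraries of a pool share single indices. In pool 2, the summed reads of *Alb*, *Afp*, *Ttr*, *Rbp4* and *Ambp* had a median of 0 (0 to 1) in the 15 cells that shared neither index with a hepatic cell, 11 (0 to 492) in the 65 that shared 1, and 23 (4 to 612) in the 32 that shared both, from different cells. The 15 were all E13.5 bulk cells and the 32 were all cells of E10.5. Index sharing in pool 2 thus cannot be told apart from stage and sort. In the other pools the medians were 0 where neither was shared and 2.5 to 11 where both were. Of the 13 E13.5 Lgr5-GFP+ cells with more than 10 *Rbp4* reads that were not Afp-positive, 12 came from pool 2. The part of shared indices in these low reads was not tested. Calls elsewhere use more than 10 reads, a cut-off that 34 of the remaining pool 2 cells passed for *Rbp4* and 3 for *Ambp*. These are counted elsewhere as cells with that gene.

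Other plasma carriers were compared in the same E10.5 contrast, from lists named in the methods. Of 16 such genes, 12 had enough reads. Of these 12, 9 were at least 4-fold higher in Afp-positive cells, as were 6.43% of all genes tested, and 3 were lower. No share of all genes was taken for lower levels. The highest ratios were those of *Apob*, the scaffold of lipoprotein particles (93.2 against 0.0461 RPM, log2 10.98), *Hpx*, which binds haem (131.1 against 0.124 RPM, 10.04), and *Apom* (3259 against 5.65 RPM, 9.17). *Apob* and *Hpx*, with 20 and 54 reads in other cells, passed the filter on reads only through Afp-positive cells. Lower in Afp-positive cells were *Hp*, haptoglobin (0.0379 against 0.910 RPM), *Cp*, the copper carrier ceruloplasmin (0.0757 against 0.871 RPM), and *Apoh* (0.252 against 1.26 RPM). These 3 rest on few cells, since *Hp* passed 10 reads in 1, *Cp* in 2 and *Apoh* in 10 of the other cells, and all 3 turned direction between pools (log2 -3.63 to 2.90 for *Hp*, -5.66 to 4.13 for *Cp* and -5.61 to 3.25 for *Apoh*). *Afm*, the family member next to *Afp*, was at 39.1 against 3.14 RPM and passed 10 reads in 13 of 63 cells. *Apoa1*, *Apoa2*, *Apob*, *Apom* and *Serpina6* are also part of the hepatic score.

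Most receptors and partners of the carriers were not 4-fold higher in Afp-positive cells. Of 14 tested, 5 were at least 4-fold lower in Afp-positive cells and 7 lay between. As above, lower levels have no share of all genes beside them. At least 4-fold higher were 2, against 6.43% of all genes tested. These 2 were *Rbp2* (12.3 against 0.396 RPM) and the endocytic receptor *Lrp2* (30.1 against 5.47 RPM). *Lrp2* passed 10 reads in 6 of 63 Afp-positive cells and turned direction between pools (log2 -4.58 to 6.15). The lower ones included *Stra6*, the membrane receptor for retinol-binding protein, at 0.126 against 48.6 RPM with 0 of 63 Afp-positive and 55 of 351 other cells above 10 reads, and the retinoic acid-binding proteins *Crabp1* (36.5 against 579 RPM) and *Crabp2* (118.1 against 662 RPM). *Tfrc*, the transferrin receptor, was at 108.4 against 70.5 RPM. *Rbp4* and its receptor *Stra6* were thus higher in different groups of cells.

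Of 18 transcription factors known to act on *Alb* or *Afp* or in hepatoblasts, 1 was at least 4-fold lower and 5 lay between. The other 12 were at least 4-fold higher in Afp-positive cells, as were 6.43% of all genes tested. The highest were *Foxa3* (139.9 against 0.267 RPM), *Hnf4a* (151.3 against 0.454 RPM) and *Nr5a2* (151.5 against 1.16 RPM), of which *Foxa3* and *Hnf4a* were among the hepatic markers. *Gata4* was lower (1.17 against 59.9 RPM). *Zbtb20* and *Zhx2*, known as repressors of *Afp* after birth, were at 84.2 against 138.1 RPM and 16.2 against 9.98 RPM, and both turned direction between pools.

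The carriers also differed in which genes varied with them. Over the 63 E10.5 Afp-positive cells and 5114 genes, the highest Spearman correlations were those of *Afp* with *Plg*, plasminogen (0.72), *4930556J24Rik* (0.69) and the ferritin chain *Fth1* (0.66), and of *Rbp4* with the apolipoprotein genes *Apom* (0.62) and *Apoa2* (0.61) and with *Cited1* (0.55). *Alb* was closest to *Fabp1* (0.48), a fatty acid-binding protein, followed by *Canx* (0.44) and *Cluh* (0.43). *Ambp* was closest to *Mrpl38* (0.54), *Apoa1* (0.52) and *Fth1* (0.50), and *Shbg* to *Apoa1* and *Fxyd1* (both 0.52) and *Gpt2* (0.51). *Ttr* was closest to *2310009B15Rik*, *Glud1* and *Tnfrsf12a* (0.52 each). All are the 3 highest of 5114 genes for a carrier, a choice that favours high values, and they were not taken within pools. For *Gc* (*Rras2*, *Atxn2l* and *Fxr2*, 0.46 to 0.52) and *Ahsg* (*Uhrf1bp1*, *Pnliprp1* and *Plcxd2*, 0.50 to 0.51) the values rest on 8 and 4 cells above 10 reads and are no finding. Among the carriers, *Afp* and *Ambp* varied together most over all cells (0.57) and within the 27 of pools 3 to 5 (0.84). Within the 34 of pool 2 their value was 0.39, below that of *Rbp4* and *Ambp* (0.45). *Alb* and *Afp* varied together less than *Afp* and *Ambp* (0.24 over all cells, -0.04 in pool 2 and 0.43 in pools 3 to 5). These values describe cells that share pools and depth and are not independent replicates.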

How the data were processed

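The authors aligned single-end Smart-seq2 reads to GRCm38 with spike-in sequences added, using STAR 2.6.0c, and counted uniquely aligned reads per gene with Subread 1.6.2 on the Ensembl annotation. They then filtered cells on mitochondrial and spike-in reads, depth and genes detected (the last with limits set per sort), and deposited raw counts per gene and cell, which were used here, and a normalised table of variable genes, which was not. Columns were matched to samples by title (0 left unused), and groups were taken from the labels. Names, positions and exon lengths came from GENCODE vM21 on the same build and promoter windows from RefSeq. Symbols were found for 54042 genes.

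Reads were summed over the cells of a group and divided by their reads on all genes (RPM), or also by exon length. A sum of 0 was set to 3 counts in ratios, which then are bounds. Intervals are exact binomial and Poisson intervals. A class needed more than 10 reads of at least 2 of its markers. Genes were compared across the table from 100 summed reads, and a ratio was counted from a log2 of 2. The ratio was tested on simulated data. Lists held other plasma carriers, receptors and partners, transcription factors, and markers of 7 cell types. Named genes were the 9 carriers, the list genes with the highest ratios or against the carriers' direction, and for each carrier the 3 genes with the highest Spearman correlation of log2(RPM + 1), among genes with more than 10 reads in at least 25% of the 63 cells. Alternatives left out each pool in turn and changed the read cut-off, depth (thinning to 100000 reads), scaling and gene filter. The carriers, lists and cut-offs were chosen with earlier results of these data known. Python 3.11.15, numpy 2.4.6, pandas 2.3.3, scipy 1.17.1 and matplotlib 3.10.9 were used.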

Additional observations from a re-analysis of the deposited data

How the results depend on the processing

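No paired analysis was possible because the results come from no test and the labels number no replicates. The sorts were compared within each pool as a description only. The 7 carriers with reads other than *Afp* stayed at least 4-fold higher in Afp-positive cells of E10.5 under the 11 alternatives run. With at least 1 *Afp* read as the cut-off, the Afp-positive shares were 30.5% (E10.5 bulk), 58.3% (E10.5 Lgr5-GFP+), 6.92% (E13.5 bulk) and 47.5% (E13.5 Lgr5-GFP+). With hepatic markers in place of *Afp*, the share in E13.5 Lgr5-GFP+ cells was 0%. Leaving out each pool in turn gave 3.61% to 4.35% for E10.5 bulk, 14.02% to 32.5% for E10.5 Lgr5-GFP+, 0% to 0.8% for E13.5 bulk and 1.49% to 3.77% for E13.5 Lgr5-GFP+. The 6 carriers that were 4-fold higher in Lgr5-GFP+ than bulk cells at E10.5 became 1 when only Afp-positive cells were compared, and 5 to 7 without 1 pool. At E13.5 the number was 3 to 7 without 1 pool, and *Gc* reversed without pool 4 (log2 -3.28 to 6.39 over the pools left out). From E13.5 to E10.5 it was 7 to 8 in bulk and 6 to 8 in Lgr5-GFP+ cells. The order of the 8 carriers by share of Afp-positive cells kept 5 places with at least 1 read, with thinning to 100000 reads and in pool 2 alone, and 5 to 8 without 1 pool. The changes were among *Rbp4*, *Ambp*, *Ttr* and *Afp*. Over the wider set of cells it kept 6 to 8. The alternatives on the order in Afp-positive cells, and hepatic markers alone as the set of cells, were chosen after seeing the data, as were the values without pool 2 outside Afp-positive cells and those by *Lgr5* within pools. Without the filter on reads, or from a log2 ratio of 1, the genes past the ratio were 4627 or 2237 (Afp-positive to other), 3202 or 3328 (sorts at E10.5), 9411 or 9225 (sorts at E13.5), and 5418 from a log2 ratio of 1 (stages, Lgr5-GFP+) and 9245 without the filter (sorts within Afp-positive cells). The cause of these changes was not tested. With 1 sample per group, no difference between groups can be set against biological replicates.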
